A study of Oryza sativa Japonica Group with 6 samples.

Results

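Brassinosteroids are growth-promoting steroid hormones of plants, and the transcripts examined here are 10 rice genes that make, perceive or relay them. The genes were chosen by locus identifier as known members of the pathway, not by a rule on their values. Earlier results of these data were known when they were chosen. The members are 10 of the 31010 genes listed in the series. DWARF4, D11, D2 and BRD1 encode cytochrome P450 enzymes of hormone synthesis. BRI1 and BAK1 encode the receptor and its co-receptor, GSK2 and BZR1 the kinase and the transcription factor of the signal relay, and DLT and BU1 regulators of the growth response.

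RNA was sequenced from root tips about 0.8 cm long of 7-day seedlings of rice (Oryza sativa Japonica Group). The 2 groups were wild type Zhonghua 11 (ZH11 in the labels) and plt345, a triple mutant of PLT3, PLT4 and PLT5, with 3 libraries each. These genes encode PLETHORA transcription factors, which act in root meristems. The labels give neither the kind of mutation, nor whether plt345 is 1 line, nor whether libraries came from separate plants, so the p-values cover only library-to-library spread, which may be technical. No treatment was given, and all seedlings grew on the same medium with 14 h of light and 10 h of dark.

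Brassinosteroid synthesis starts from plant sterols and proceeds by oxidation of the side chain and of the ring system, largely by P450 enzymes. The hormone binds BRI1 outside the cell, BRI1 and BAK1 activate each other, and the GSK3-like kinase GSK2 is then held back. Without hormone GSK2 phosphorylates BZR1 and DLT and so restrains them, and active BZR1 in turn represses genes of hormone synthesis in a feedback loop. In roots the hormone is known for its part in cell division in the meristem and in cell elongation.

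Libraries held 20759896 to 21309371 reads counted on genes. Values below are normalized counts, that is, reads divided by the authors' size factor for the library, and levels are compared between libraries for 1 gene, never between genes, since transcript lengths were not used here. Of the mutated genes, PLT3 had 572.8 to 583.7 normalized counts in wild type and 555.8 to 595.2 in plt345, PLT4 248.5 to 287.8 and 218.2 to 244.2, and PLT5 512.6 to 564.4 and 1259 to 1277. Since a mutation need not remove a transcript, the genotype is not checked by these levels. The loci of PLT3, PLT4 and PLT5 rest on rice nomenclature alone.

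Each gene was tested within a fit of the 23166 genes whose mean normalized count was 10 or more (limma-trend on log2(value + 1), Benjamini-Hochberg adjusted p under 0.05), and all 10 members entered it. All 10 passed, with 4 of them higher and 6 lower in plt345. Of all genes tested 68.0% passed, 34.0% higher and 34.0% lower, so a call by itself does not set a member apart. In none of the 10 did the 2 genotypes overlap, which held for 71.0% of all genes tested. The median log2 fold change of the members was -0.21 against -0.01 for all genes tested, and their median absolute log2 fold change was 0.40 against 0.32. Only DWARF4 rose at least 2-fold, as 13.8% of all genes did, and only BU1 fell as far, as 2.97% did. In these bulk samples fewer cells of a type and less RNA per cell cannot be told apart.

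**Figure D1:**
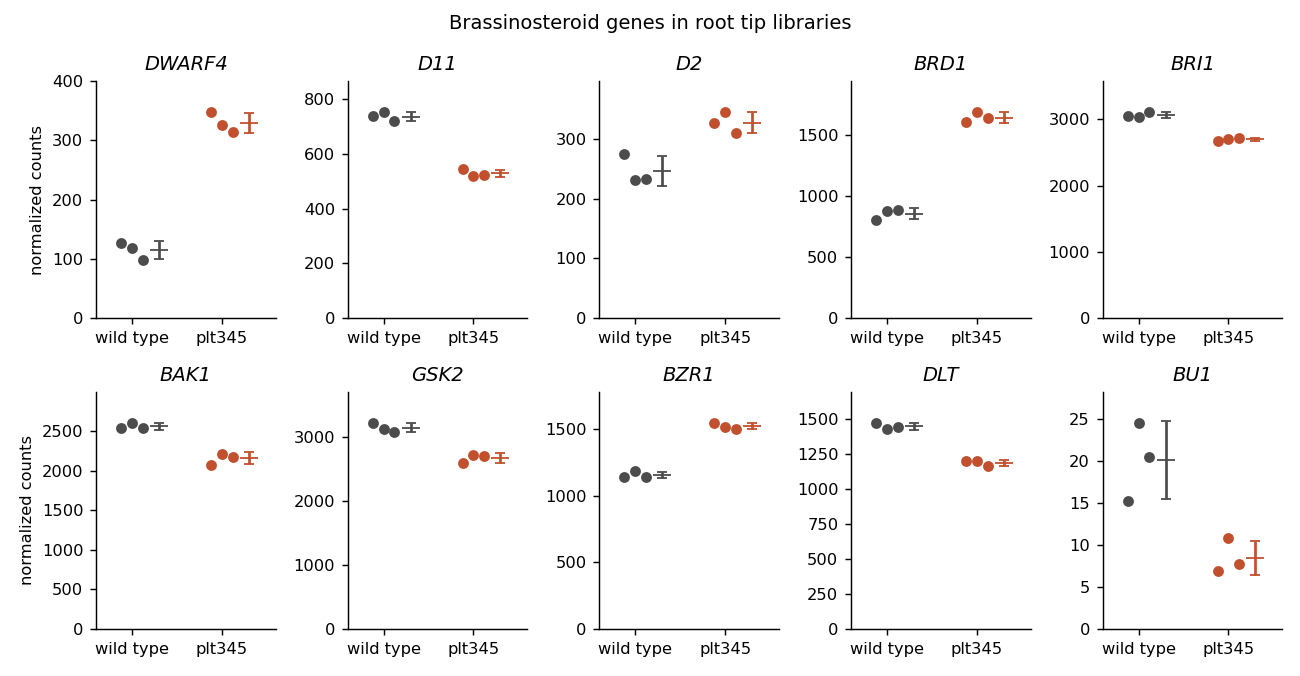
Normalized counts of the 10 members in each library (points), with the mean and SD of the 3 libraries of a genotype at the right of each group; each vertical axis starts at 0 and has its own range. In each panel the 3 plt345 libraries lie wholly above or wholly below the 3 wild type libraries, above for DWARF4, D2, BRD1 and BZR1 and below for the other 6.

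The synthesis genes moved apart. DWARF4, BRD1 and D2 were higher in plt345 and D11 was lower, and the increases of DWARF4 and BRD1 were the widest among the 10 members.

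DWARF4 (LOC_Os03g12660) encodes a P450 that hydroxylates the sterol side chain, a step regarded as limiting for the pathway in Arabidopsis. It had 127.1, 118.6 and 98.2 normalized counts in the wild type libraries and 348.1, 325.8 and 314.4 in the plt345 libraries. The lowest plt345 library lay far above the highest wild type library. The means, 114.7 ± 14.9 and 329.4 ± 17.1 (SD, n = 3 each), differed 2.87-fold (limma log2 fold change 1.52 ± 0.10 SE, adjusted p = 4.64e-13). Of all genes tested 91.1% had a lower log2 fold change than DWARF4.

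BRD1 (LOC_Os03g40540) encodes the P450 that oxidises the ring late in the pathway and yields castasterone, an active brassinosteroid. Its wild type libraries held 804.4, 879.6 and 884 normalized counts and its plt345 libraries 1606, 1692 and 1640. The rise was 1.92-fold, from 856 ± 44.7 to 1646 ± 43.0 (limma log2 fold change 0.94 ± 0.04 SE, adjusted p = 7.22e-16). It exceeded the log2 fold change of 85.4% of all genes tested.

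D2 (LOC_Os01g10040) encodes a P450 of the CYP90D group that acts between these steps. It measured 275.6, 231.2 and 233.3 normalized counts in wild type and 326.5, 345.4 and 310.6 in plt345. Wild type replicate 1 was the highest of its genotype and still lay below the lowest plt345 library. The increase was 1.33-fold (limma log2 fold change 0.41 ± 0.08 SE, adjusted p = 7.09e-05).

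D11 (LOC_Os04g39430) encodes a P450 of another subfamily that also works on the side chain, at the same early stage as DWARF4, and in rice the 2 enzymes overlap in function. It went the other way, with 737.3, 753.8 and 720.3 normalized counts in wild type and 545.2, 519.5 and 522.1 in plt345. It was 1.39-fold lower, at 528.9 ± 14.1 against 737.1 ± 16.8 (limma log2 fold change -0.48 ± 0.05 SE, adjusted p = 7.59e-09). Only 12.1% of all genes tested had a lower log2 fold change.

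Among the perception genes both members fell by small amounts. BRI1 (LOC_Os01g52050), the leucine-rich repeat receptor kinase whose rice mutants are the d61 dwarfs, had 3044, 3032 and 3111 normalized counts in wild type and 2667, 2699 and 2722 in plt345. The genotypes were separated by more than the range within either of them. The fall was 1.14-fold, from 3062 ± 42.9 to 2696 ± 27.7 (limma log2 fold change -0.18 ± 0.03 SE, adjusted p = 1.74e-05).

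BAK1 (LOC_Os08g07760), a kinase of the SERK family, had 2537, 2606 and 2534 normalized counts in wild type and 2073, 2216 and 2177 in plt345. All 3 plt345 libraries were below the wild type libraries, and plt345 replicate 1 was the lowest. BAK1 was 1.19-fold lower (limma log2 fold change -0.25 ± 0.04 SE, adjusted p = 9.25e-07). Its relatives in the SERK family are similar in sequence, and the sources used here do not say how shared reads were counted.

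The genes of the signal relay moved in opposite directions. GSK2 (LOC_Os05g11730), the inhibitory kinase, had 3221, 3129 and 3074 normalized counts in wild type and 2584, 2722 and 2705 in plt345. It fell 1.18-fold (limma log2 fold change -0.23 ± 0.03 SE, adjusted p = 1.13e-06). BZR1 (LOC_Os07g39220), which GSK2 restrains, had 1145, 1184 and 1144 normalized counts in wild type and 1550, 1520 and 1503 in plt345. It rose 1.32-fold, from 1158 ± 23.1 to 1525 ± 23.9 (limma log2 fold change 0.40 ± 0.04 SE, adjusted p = 1.86e-09). BZR1 and GSK2 proteins are controlled by phosphorylation and turnover, which transcripts do not show.

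The falls of BRI1, BAK1 and GSK2 depended in size on how libraries were scaled. When libraries were scaled by their totals instead of by size factors, the log2 fold changes were -0.10, -0.16 and -0.15, with limma adjusted p = 0.0121, 0.00031 and 0.000451. That scaling moved the median of all genes tested by 0.09 and the share of calls that were higher from 50.1% to 60.8%. The falls of D11, DLT and BU1 shrank too, from -0.48, -0.29 and -1.16 to -0.39, -0.20 and -1.08. No member changed direction under that scaling. All rises grew, and BRD1 reached a log2 fold change of 1.03, past 2-fold.

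Both response regulators fell. DLT (LOC_Os06g03710), a GRAS-type regulator that promotes hormone responses and takes part in the feedback on synthesis, had 1476, 1428 and 1444 normalized counts in wild type and 1198, 1200 and 1163 in plt345. It was 1.22-fold lower (limma log2 fold change -0.29 ± 0.04 SE, adjusted p = 4.77e-07). The reference table of gene symbols does not hold DLT, so its locus rests on rice nomenclature.

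BU1 (LOC_Os06g12210) encodes a small helix-loop-helix protein whose transcript is induced by brassinosteroid and which promotes bending of the leaf joint. It was near the lower limit of the test, with 15, 24 and 20 reads in the wild type libraries and 7, 11 and 8 in the plt345 libraries. Every plt345 library was below every wild type library. The means were 20.1 ± 4.66 and 8.44 ± 2.05 normalized counts (limma log2 fold change -1.16 ± 0.31 SE, adjusted p = 0.00215). From the summed reads, 59 and 26, the wild type level was 2.38-fold that of plt345, with a 95% exact binomial interval of 1.48 to 3.93 that covers counting error only. Just 2.16% of all genes tested had a lower log2 fold change.

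**Figure D2:**
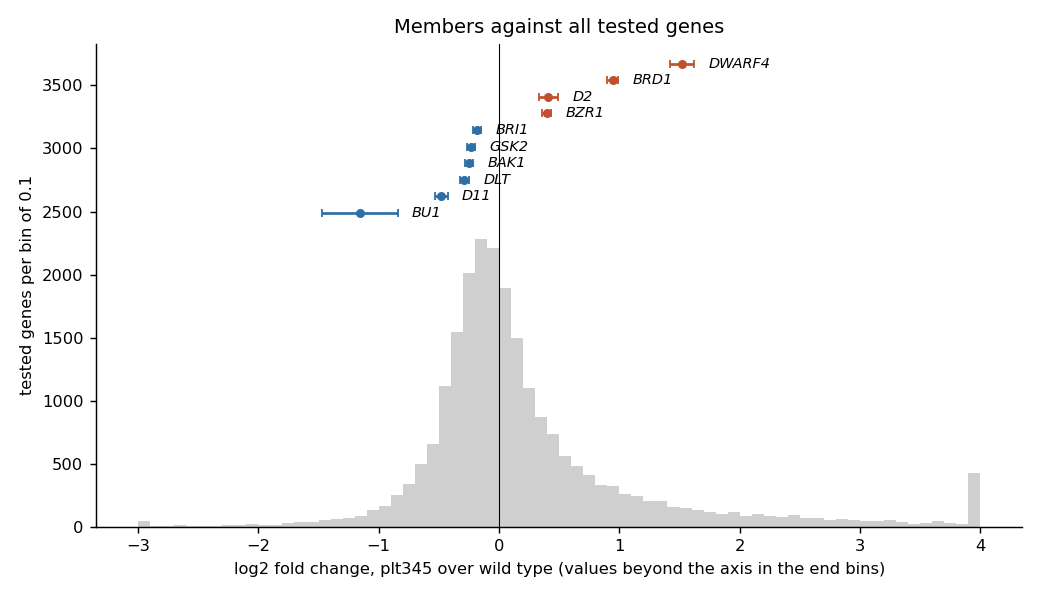
Log2 fold change (plt345 over wild type) of each member with its SE (points and bars, red for higher and blue for lower), drawn above the histogram of all 23166 genes tested, whose vertical axis counts genes per bin; the height of the points only separates the labels. DWARF4 at 1.52 and BRD1 at 0.94 lie in the long right side of the histogram and BU1 at -1.16 in the thin left side, while the other 7 lie between -0.48 and 0.41.

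The SD between libraries of a genotype was 0.54 to 1.62 times what counting alone gives, over the 10 members. Apart from BU1, the coefficient of variation within a genotype ran from 1.03% to 13.0%. For BRI1 it was 1.40% in wild type, where counting alone would give 1.83%. For DWARF4 it was 13.0% against 9.44% from counting, and for BU1 23.2% against 22.5%. The lower members therefore carry the wider errors.

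Ratios of 2 members within a library do not depend on scaling and were taken for 5 pairs, chosen after the values had been seen. A ratio also reflects the lengths of both transcripts, so only its change between genotypes is read. The reads of DWARF4 to those of D11 stood at 0.172, 0.157 and 0.136 in wild type and at 0.638, 0.627 and 0.602 in plt345, a 4.01-fold change. The pair was picked because its members had moved apart, so this ratio restates those changes free of scaling and is not tested.

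BZR1 to GSK2 went from 0.369 ± 0.0119 to 0.571 ± 0.0248 (SD, n = 3 each), 1.55-fold, and BRD1 to D2 from 3.5 ± 0.507 to 5.03 ± 0.216, 1.44-fold. In these 3 pairs the genotypes did not overlap. For DWARF4 to D11 and BZR1 to GSK2 this followed from the opposite directions of their members and adds nothing to those changes. No ratio was tested. BRI1 to BAK1 (1.2 ± 0.0323 and 1.25 ± 0.0343) and DLT to GSK2 (0.461 ± 0.00715 and 0.445 ± 0.0172) overlapped between genotypes.

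**Figure D3:**
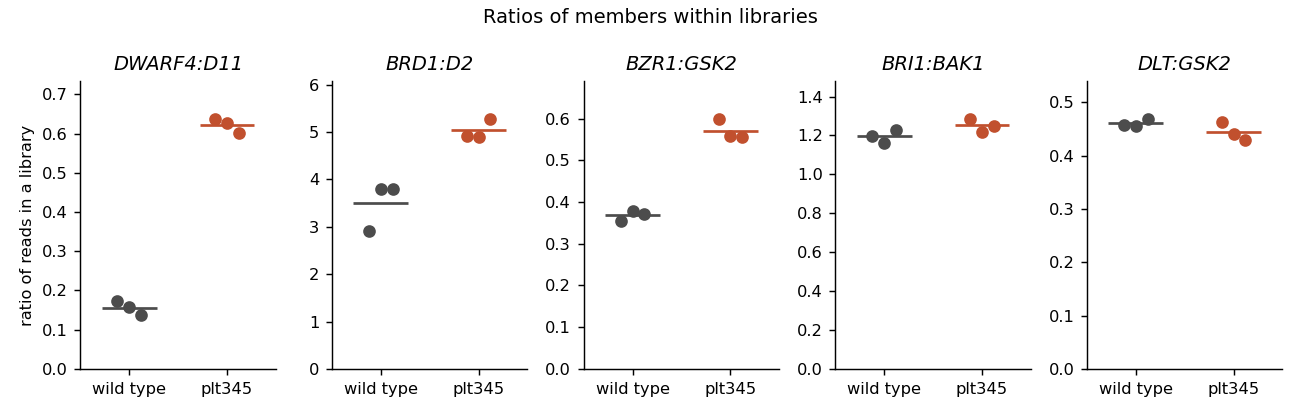
Ratio of the reads of 2 members in each library (points) with the genotype mean (lines), for 5 pairs; each vertical axis starts at 0. DWARF4 to D11 rises from a mean of 0.155 in wild type to 0.623 in plt345, and BRI1 to BAK1 and DLT to GSK2 overlap between genotypes.

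The other genes of the pathway were taken from a list of 44 loci written from rice nomenclature, of which 43 were tested. Of these 14 were higher, 19 were lower and 10 did not pass, and with library totals as scaling 16 were higher and 15 lower, so which direction holds more calls depends on the scaling. Their median log2 fold change was -0.07 against -0.01 for all genes tested, and the 33 of 43 called stand beside 68.0% of all genes. The reference table held the symbol of 22 of the 44 at a fitting place in the genome, and 17 of these 22 passed, 8 higher and 9 lower. Only those 22 are named. Names without a mark follow a rule that itself uses the fold change and the adjusted p, and names marked (a) fall outside it and were added after their values had been seen. Of the 22 loci whose symbols were not found, 21 were tested, 6 were higher and 10 lower.

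Of the 6 further synthesis loci 5 were lower and none was higher, where 34.0% of all genes tested were lower. Among these were CYP90A4(a) and CYP90A3(a), P450 genes of the group that holds CPD of Arabidopsis. CYP90A4 (LOC_Os12g04480) had 562.4, 498.1 and 530 normalized counts in wild type and 297.1, 282.8 and 296.2 in plt345, 1.82-fold lower (limma log2 fold change -0.86 ± 0.06 SE, adjusted p = 1.1e-11). CYP90A3 (LOC_Os11g04710) was 1.33-fold lower (limma log2 fold change -0.40 ± 0.15 SE, adjusted p = 0.0192). It did not pass in DESeq2 as run here (adjusted p = 0.0657) or in the authors' deposited DESeq2 values (adjusted p = 0.0902). Nor did it pass under scaling by library totals (-0.32). Leaving out plt345 replicate 1 (-0.38), plt345 replicate 3 (-0.34) or replicate 1 of wild type (-0.30) also lost the call. The pair lies in a duplicated part of the genome, and reads could have been split between them.

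The CYP734A enzymes oxidise the side chain of active brassinosteroids and so end their activity. Of their 4 genes 3 rose and none fell, where 34.0% of all genes tested were higher. CYP734A6 (LOC_Os01g29150) had 84.4, 74.7 and 94.1 normalized counts in wild type and 332.4, 316 and 307.7 in plt345. It rose 3.78-fold (limma log2 fold change 1.91 ± 0.10 SE, adjusted p = 9.11e-15), further than any of the 10 members. CYP734A4(a) rose 1.98-fold and CYP734A2(a) 1.50-fold. CYP734A5(a) had a log2 fold change of 0.25 and did not pass (SE 0.11, limma adjusted p = 0.052). It passed in edgeR (adjusted p = 0.0331), with TMM scaling (adjusted p = 0.0441), under scaling by library totals (0.34), among genes with a mean of 50 or more (adjusted p = 0.0489) and without plt345 replicate 2 (0.31).

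Of 5 further receptor loci 2 rose, 3 did not pass and none fell, where 34.0% of all genes tested were higher and 34.0% lower. The related receptor gene BRL1 (LOC_Os09g12240) rose where BRI1 fell. It had 209.5, 225 and 226.1 normalized counts in wild type and 644.2, 648.7 and 663.5 in plt345, a 2.96-fold rise (limma log2 fold change 1.56 ± 0.06 SE, adjusted p = 3.48e-17). BRL2(a), another relative, had a log2 fold change of 0.11 and did not pass (limma adjusted p = 0.0878), and passed under scaling by library totals (0.20) and without wild type replicate 1 (0.16). REM4.1 (LOC_Os07g38170), a remorin that hinders the receptor complex, was 1.14-fold lower (log2 fold change -0.19, limma adjusted p = 0.00562). Scaled by library totals REM4.1 did not pass (-0.10, limma adjusted p = 0.129).

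Of the 3 loci related to GSK2, 1 rose and 2 fell, where 34.0% of all genes tested were higher and 34.0% lower. GSK4 (LOC_Os06g35530) was 1.15-fold lower (limma log2 fold change -0.20 ± 0.03 SE, adjusted p = 9.43e-06, and -0.11 with library totals). The other fall, at a locus whose symbol was not found, was -0.09 on the log2 scale (limma adjusted p = 0.0195). Library totals moved the median of all genes tested by 0.09, about the size of this fall. Among 8 loci of transcription factors 5 rose, 1 fell and 2 did not pass, beside the same shares of all genes tested. The BZR1 relatives BZR2(a) and BZR3(a) rose 1.14-fold and 1.13-fold. SMOS1 (LOC_Os05g32270), an AP2-type transcription factor that acts together with DLT, had 1126, 1131 and 1193 normalized counts in wild type and 697.2, 684.9 and 669.2 in plt345. The fall of SMOS1 was 1.68-fold (limma log2 fold change -0.75 ± 0.05 SE, adjusted p = 1.41e-13).

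OFP8(a), of the OVATE family, rose 1.30-fold. OFP8 did not pass in DESeq2 as run here (adjusted p = 0.0838) or in the authors' deposited DESeq2 values (adjusted p = 0.13). Leaving out replicate 1 (log2 fold change 0.33) or 3 (0.32) of wild type also lost the call. So did leaving out replicate 2 (0.35) or 3 (0.38) of plt345. LIC(a), a zinc finger gene that counteracts BZR1, had a log2 fold change of -0.11 and did not pass (limma adjusted p = 0.144). CYCU4;1(a), a U-type cyclin gene, was 1.67-fold lower.

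Of 5 helix-loop-helix loci, the class of BU1, 1 was higher, 2 were lower and 2 did not pass. The shares over all genes tested were 34.0% higher and 34.0% lower. PGL1 (LOC_Os03g07510), which promotes grain length, had 1201, 1260 and 1179 normalized counts in wild type and 437.3, 420.7 and 444.2 in plt345. PGL1 fell 2.79-fold (limma log2 fold change -1.48 ± 0.05 SE, adjusted p = 5.04e-19). PGL2(a), also a promoter of grain length, rose 1.29-fold. APG(a), the antagonist of PGL1, and IBH1(a), an inhibitor in the same network, did not pass, with log2 fold changes of 0.22 and 0.01 (limma adjusted p = 0.169 and 0.921).

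Both genes of the G protein branch, through which BU1 is also controlled, were lower, where 34.0% of all genes tested were lower. RGA1 (LOC_Os05g26890), the alpha subunit, fell 1.22-fold (limma log2 fold change -0.29 ± 0.06 SE, adjusted p = 6.21e-05), and the ubiquitin ligase gene TUD1(a) fell 1.18-fold. Scaled by library totals, the log2 fold change was -0.20 for RGA1 and -0.15 for TUD1, and both still passed.

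For the 3 members with the widest changes, the locus of the wider list most alike over the 6 libraries was sought by Euclidean distance between their log2(value + 1) profiles, each taken relative to its own wild type mean. BRD1 was closest to CYP734A4, at a distance of 0.536, and BU1 to PGL1, at 0.851. The locus closest to DWARF4, at 0.282, has no symbol in the reference table. With 6 libraries in 2 groups such likeness is mainly a like size of change.

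**Figure D4:**
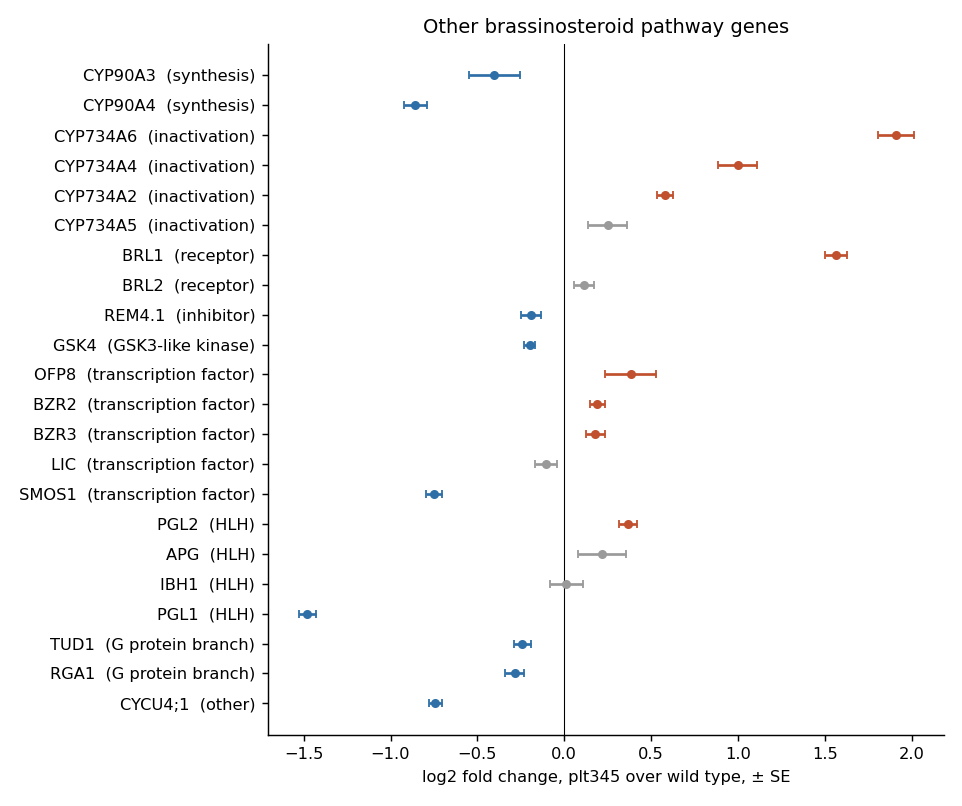
Log2 fold change (plt345 over wild type) with SE of the 22 further pathway genes whose symbol was found, grouped by role from top to bottom; red is higher, blue lower and grey not past the threshold. CYP734A6 at 1.91 and BRL1 at 1.56 lie furthest right and PGL1 at -1.48 furthest left, and both CYP90A genes lie left of 0.

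Marker genes of root cell types moved between the same libraries. The 3 genes of dividing cells were all lower, with a summed level of 4872 to 5035 normalized counts in wild type and 3492 to 3710 in plt345. All 3 cellulose synthase genes of xylem were higher (2247 to 2307 and 3873 to 3904). The silicon transporter genes LSI1 and LSI2 of differentiated root were both higher (1646 to 1690 and 6833 to 7083). The 2 root markers were abundant in each library and both lower in plt345 (summed 60983 to 66232 and 30690 to 31692). PIN2 itself had means of 4755 in wild type and 3182 in plt345. Most of the counts in the sum came from the other gene, whose symbol was not found, and counts reflect transcript length as well as level. Green leaf markers were low, at 44 to 54.2 in wild type and 5.87 to 13.5 in plt345 for CAB1R and CAB2R together, and CAB1R was lower. No marker was at 0 in a genotype, and the part of these shifts in the values of the brassinosteroid genes was not tested.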

How the data were processed

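TRIzol was used to extract total RNA, and sequencing was in paired ends on a BGISEQ-500, per the labels' protocols. HISAT2, featureCounts 2.0.0 and DESeq2 1.38.3 appear in the submitters' processing notes. Not given in the sources used here are genome build, strand setting and treatment of shared reads.

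The authors deposited 1 table. Its library columns and their mean are counts divided by size factors, a signal that is never negative, per the file headers and the values. Whole reads were recovered from them, as 100% of the values were whole multiples of 1 read to a tolerance of 0.01 reads. The authors' deposited log2 fold changes and adjusted p-values from DESeq2 entered as an alternative, while their Wald statistic, a score, was not used. Adjusted p-values missing there (1789 genes) stayed missing.

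Genes with a mean of at least 10 were fitted with limma 3.58.1 (trend, two-sided, no covariate) in R 4.3.3 on log2(value + 1), which understates changes of low genes. Alternatives were edgeR 4.0.16 (which called 15901 genes on the recovered reads, against 15751), DESeq2 1.42.0, other scalings, filters and pseudocounts, a replicate block, and leaving out each library. The chi-square per gene lay between 1.42 and 2.08 for libraries of 1 genotype and between 53.2 and 54.7 across genotypes. No library was taken for a repeat of another.

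Symbols were matched to locus identifiers by asking whether the reference table (assembly ASM3414082v1) holds the symbol on that chromosome, at most 1 Mb from its position interpolated between other pairs. Of 134 pairs 95 matched, 38 symbols were not found and 1 was contradicted and left out. Such a match is plausible, not proof. The match held for 9 of the 10 members.

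Members and lists were chosen with earlier results of these data known. The rule for naming genes of the wider list takes each gene called with at least a 2-fold change and, whatever its fold, the gene with the smallest adjusted p in each role. Of 14 so chosen, 7 had a matched symbol and are named. The other 15 genes with a matched symbol are outside the rule and are marked where named. Protein and promoter sequences were not used here.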

Additional observations from a re-analysis of the deposited data

How the results depend on the processing

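Each of the 10 members kept its direction and its call under every one of the 15 alternatives in which it could be tested, 149 values in all. BU1, too low for the filter at a mean of 50, gave no value there. The widest shifts in relative size were those of BRI1, BAK1 and GSK2 with library totals, given above. Leaving out each library in turn kept all 10 calls, with DWARF4 between 1.42 and 1.60, BRD1 between 0.90 and 0.97 and BU1 between -1.33 and -1.01 on the log2 scale, and BU1 had the weakest call (largest limma adjusted p = 0.0197). In the authors' deposited table the log2 fold change of BU1 was -1.25 (adjusted p = 0.0237). Calls in the wider list ranged from 29 to 34, and over all genes from 13358 to 17166. Of the 22 named genes of the wider list 17 kept their side of the threshold in every alternative run for them. REM4.1, CYP90A3 and OFP8 lost a call and CYP734A5 and BRL2 gained one in at least 1 alternative, as given above, and none changed direction while called. TMM scaling was added after seeing the data and called all 10 members.

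Between genotypes, the deviations of same-numbered libraries correlated by -0.000854 to 0.024, and those of other pairs by -0.0235 to 0.00517. An effect shared by replicate number was thus weak at most. Whether same-numbered libraries were handled together cannot be told from these values. With the replicate number as a block 15913 genes were called, against 15751 without it, and all 10 members stayed called. Depth limits BU1 most, where 59 and 26 reads lie behind the comparison.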

Other observations

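The nearest tested locus on either side of each member was read as well, 20 loci in all. Of these 9 were higher and 7 lower in plt345, and 4 did not pass (limma adjusted p under 0.05), so 16 of 20 were called where 68.0% of all genes were. In 11 cases the call had the direction of the member beside it and in 5 the opposite one. Each direction held 34.0% of all genes tested, and whether neighbours follow the members was not tested. The widest change was that of LOC_Os07g39240, next to BZR1, which the sources used here do not name. It went from 35.7 to 481.2 normalized counts, 13.5-fold, where BZR1 itself rose 1.32-fold. Both loci beside D11 were higher while D11 was lower. Whether reads of neighbouring transcripts were told apart by strand is not given in the sources used here.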
